A study of Rattus norvegicus with 12 samples.

Results

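The acrylamide effect common to cerebellum, spinal cord and sciatic nerve was measured by setting all 6 acrylamide arrays against all 6 saline arrays, with tissue as a block, and by asking which genes kept the same sign in all 3 tissues. Its members were the 15930 probe sets, of 31099 on the array, whose mean signal exceeded 110 arbitrary units in each tissue; a probe set is a group of short probes that reports 1 transcript or a few related ones. They covered 9187 of the 14217 genes that the annotation names for single probe sets. Acrylamide cerebellum, acrylamide spinal cord and acrylamide sciatic nerve, and then saline cerebellum, saline spinal cord and saline sciatic nerve, had 2 arrays each, 12 in all, and each array carried tissue pooled from 2 rats. The animals were male Wistar rats with a starting age given as 3 weeks in one place and 25 days in another. The treated rats received 30 mg/kg acrylamide by oral gavage each day for 21 days, and the controls received saline, which one label calls solvent. The labels place collection at the end of the 21 days in one place and 21 days after treatment in another, and they do not say whether the 3 tissues of a replicate came from the same rats.

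Acrylamide is a small electrophile that binds cysteine thiols of proteins and is cleared largely by conjugation to glutathione, a step that glutathione transferases catalyse. It is best known for injuring long axons and nerve endings, with weakness and unsteady gait in exposed animals. Electrophiles release the transcription factor NRF2 from its thiol-bearing inhibitor KEAP1, and NRF2 then induces glutathione transferases and other detoxifying genes through the antioxidant response element. Interferons, heat shock factors and the circadian clock act through other elements, the last of these the E-box.

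Stretches upstream of 4 genes are shown because Gstp1, Gbp2 and Nr1d1 had the smallest p of their lists in the results that follow, and Dnajb1 the next after Hspa1a, which had no match. Each is the 250 bases before the transcription start, 5′ to 3′ on the strand of the gene, from RefSeq on the build GRCr8. Capitals mark letters that match the searched motif on either strand, TGACNNNGC (antioxidant) for Gstp1, GAAANNGAA (interferon) for Gbp2, CACGTG (E-box) for Nr1d1 and GAANNTTC (heat shock) for Dnajb1.
Gstp1, chr1:210769706-210769955, minus strand: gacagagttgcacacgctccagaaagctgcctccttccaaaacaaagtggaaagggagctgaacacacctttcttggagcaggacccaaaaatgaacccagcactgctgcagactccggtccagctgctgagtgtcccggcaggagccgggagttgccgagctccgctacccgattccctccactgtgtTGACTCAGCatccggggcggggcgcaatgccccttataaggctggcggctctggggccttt
Gbp2, chr2:234005477-234005726, plus strand: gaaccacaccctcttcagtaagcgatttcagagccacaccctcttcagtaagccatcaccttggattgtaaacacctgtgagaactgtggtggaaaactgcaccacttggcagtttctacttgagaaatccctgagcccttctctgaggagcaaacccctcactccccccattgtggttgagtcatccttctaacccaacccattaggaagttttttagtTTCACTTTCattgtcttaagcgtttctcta
Nr1d1, chr10:84229455-84229704, minus strand: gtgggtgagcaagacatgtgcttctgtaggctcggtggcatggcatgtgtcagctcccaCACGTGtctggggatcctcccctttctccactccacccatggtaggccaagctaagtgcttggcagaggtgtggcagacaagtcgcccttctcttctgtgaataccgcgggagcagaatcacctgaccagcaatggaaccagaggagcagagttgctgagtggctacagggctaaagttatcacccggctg
Dnajb1, chr19:41431142-41431391, minus strand: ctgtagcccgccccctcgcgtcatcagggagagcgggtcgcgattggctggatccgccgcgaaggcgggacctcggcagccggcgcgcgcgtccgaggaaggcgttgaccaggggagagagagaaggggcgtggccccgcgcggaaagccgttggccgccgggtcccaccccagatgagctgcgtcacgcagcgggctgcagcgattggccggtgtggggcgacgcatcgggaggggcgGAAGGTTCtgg
The Gstp1 match began 61 bases before the start, and its TGACTCAGC also holds the letters TGACTCA, an AP-1 site. The E-box and heat shock motifs read the same on both strands, so each match was counted once. Over 300-base windows that add the first 50 transcribed bases, 9 of 30 glutathione transferase and NRF2 members with a window held the antioxidant motif, against 12.1% of all 33469 windows. The interferon motif was in 10 of 15 interferon-induced members (9.71% of all windows), the heat shock motif in 9 of 12 heat shock members (8.59%) and the E-box in 4 of 16 clock members (6.42%). The sterol motif TCACNCCAC was in 0 of 16 cholesterol synthesis members and in 1.12% of all windows, which says only that these letters are not in these windows. A member counted if any of its windows matched, whereas the percentages are of single windows, 33469 for 27457 genes. The shares of members and of windows are thus unlike measures. A match is a description of letters and not a binding site.

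Array medians ran from 162 to 199 signal units, and with 2 arrays a group the precision is limited by their number. Gabra6, a receptor subunit of cerebellar granule neurons, had signals of 12270 to 13650 on the cerebellar arrays and at most 10.9 on the cord arrays, and Chat, the acetylcholine synthesis gene of motor neurons, had 485 to 586 in the cord and at most 25.4 elsewhere. Several arrays stood apart from the others of their group. Acta1, the actin of skeletal muscle, was at 13970 on spinal cord saline replicate 1 and at 209 to 376 on the other cord arrays. Its nerve signals were 519 and 7532 with acrylamide, against 1692 and 202 with saline. Gabra6 was at 2537 and 145 on the acrylamide nerve arrays, against 1882 and 146 on the saline nerve arrays, so replicate 1 of each group carried cerebellar transcripts. The summed signal of 13 fat cell markers was 27160 and 33480 on the acrylamide nerve arrays, against 71250 and 27650 on the saline nerve arrays.

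Acrylamide changed 6 probe sets in common over the 3 tissues (limma with Benjamini-Hochberg adjustment, adjusted p under 0.05), or 0.0377% of the 15930 tested, when the 12 arrays were taken as independent. With same-numbered arrays of a treatment as a random block, 1 of the 6, 1371689_at, stayed called. Of the 6, 4 rose, 0.0251%, and 2 fell, 0.0126%. Those with a gene symbol were Gstp1, Gbp2 and Asph, which rose, and Avil, which fell. For each of the 6, both acrylamide arrays lay beyond both saline arrays in each of the 3 tissues, as for 261 (1.64%) of all 15930. A small p on the same arrays favours such separation, so it is no further support for the calls. The smallest of the rises was 0.38 on the log2 scale.

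Gstp1 (1388122_at) encodes the pi-class glutathione transferase, which joins electrophiles to glutathione. It had signals of 2224 and 2443 in acrylamide cerebellum, against 1771 and 1798 in saline cerebellum. In the cord the signals were 7905 and 8356 with acrylamide, against 6516 and 6221 with saline. The nerve had 9173 and 10189 with acrylamide, against 6200.3 and 7601 with saline. Every acrylamide array was thus above both saline arrays of its tissue, and the shared log2 difference, acrylamide minus saline, was 0.41 ± 0.06 (SE; limma adjusted p = 0.0398), with 0.38 in cerebellum, 0.35 in cord and 0.49 in nerve.

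Gbp2 (1368332_at) encodes a guanylate-binding protein, a GTPase that interferon induces. Its signals were 155 and 142 in acrylamide cerebellum, against 82.6 and 87.1 in saline cerebellum, where the saline arrays lay under the filter signal of 110. The cord had 610.4 and 489 with acrylamide, against 408 and 437 with saline. The nerve had 1868 and 1780.3 with acrylamide, against 1188 and 1181 with saline. No tissue showed an overlap between the groups, and Gbp2 rose by 0.56 ± 0.08 (limma adjusted p = 0.0398), with 0.70 in cerebellum, 0.36 in cord and 0.62 in nerve.

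Asph encodes an aspartate beta-hydroxylase of the endoplasmic reticulum, and its locus also makes the splice variants junctin and junctate, which bind calcium stores. Probe set 1393345_at had signals of 2611 and 2692 in acrylamide cerebellum, against 1943 and 2047 in saline cerebellum. In the cord it was at 1322 and 1318 with acrylamide, against 923 and 964 with saline, and in the nerve at 2155 and 1849 with acrylamide, against 1643 and 1706 with saline. This probe set rose by 0.38 ± 0.05 (limma adjusted p = 0.0398). A second probe set of Asph, 1382060_at, lay the other way, with 784 and 757 in acrylamide cerebellum against 924 and 996 in saline cerebellum. It was at 515 and 472 in acrylamide cord against 583 and 557 in saline cord, and at 1393 and 1270.0 in acrylamide nerve against 1576 and 1828 in saline nerve. Its groups did not overlap in any tissue either, and its shared difference of -0.29 ± 0.06 was not called (limma adjusted p = 0.17). The remaining tested probe set, 1379884_at, was mixed, with 0.33 in cerebellum, -0.05 in cord and -0.004 in nerve, so the direction for Asph depends on the probe set.

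Avil (1368485_at) encodes advillin, an actin-binding protein of the villin family known from sensory neurons. It had signals of 274 and 331 in acrylamide cerebellum, against 512 and 434 in saline cerebellum, and of 142 and 165 in acrylamide nerve, against 281 and 245 in saline nerve. The cord arrays were dim, at 92.1 and 87.4 with acrylamide, against 150.4 and 133 with saline. All 6 acrylamide arrays were below the saline arrays of their tissue, and Avil fell by 0.64 ± 0.08 on the log2 scale (limma adjusted p = 0.0398), with -0.62 in cerebellum, -0.57 in cord and -0.72 in nerve.

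The other 2 called probe sets have no gene symbol in the annotation. Probe set 1371689_at had the smallest adjusted p, at 0.00703 (limma). It had signals of 4909.9 and 6159.7 in acrylamide cerebellum against 3729 and 3645 in saline cerebellum, and of 5009 and 6008 in acrylamide cord against 3103 and 3026 in saline cord. In the nerve it was at 7085 and 8239.6 with acrylamide, against 4505 and 4521 with saline, and it rose by 0.72 ± 0.07. Probe set 1395745_at fell by 1.1 ± 0.15 on the log2 scale (limma adjusted p = 0.0398). Its signals were 618 and 963 in acrylamide cerebellum against 1689 and 1825 in saline cerebellum, 209 and 364 in acrylamide cord against 534 and 643 in saline cord, and 367 and 543 in acrylamide nerve against 855 and 1097 in saline nerve. On both probe sets acrylamide replicate 2 was above replicate 1 in all 3 tissues. The same held for Gstp1, and for Gbp2 replicate 1 was above replicate 2 in all 3. Thus 4 of the 6 called probe sets (66.7%) kept 1 order of the acrylamide replicates, against 37.6% of all tested.

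**Figure D1:**
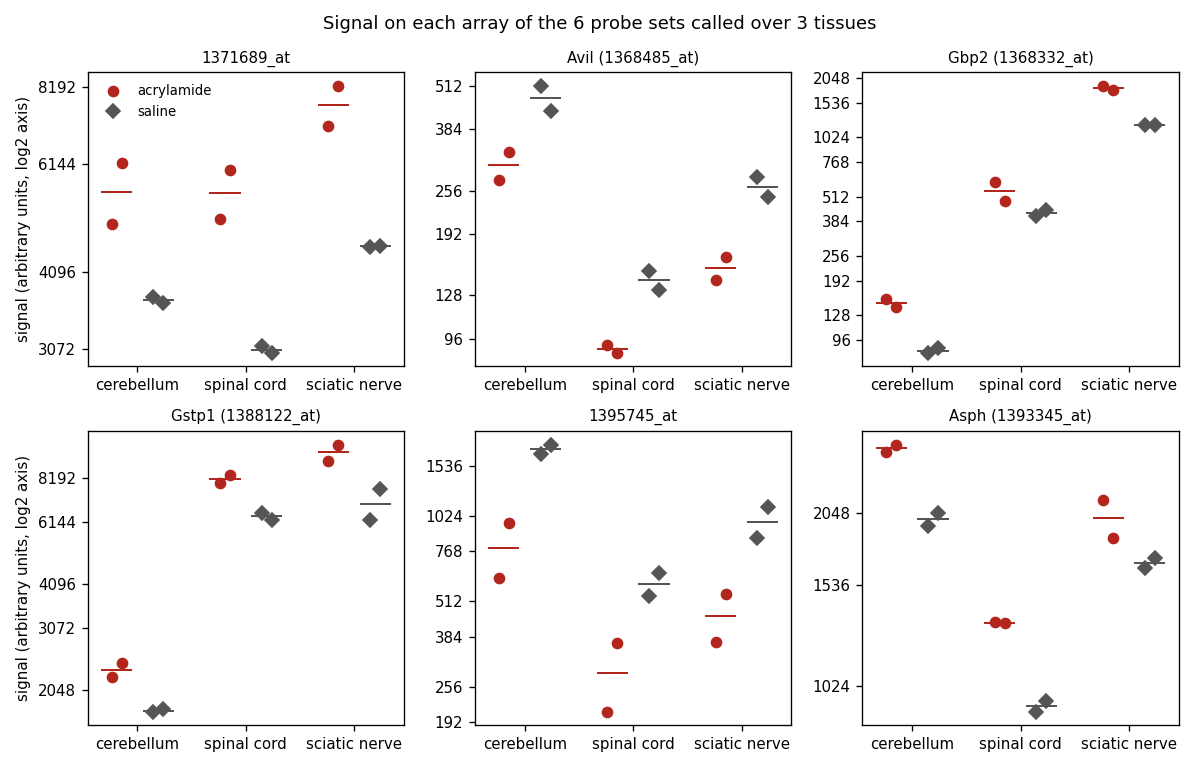
Signal on each array (arbitrary units, log2 axis) of the 6 called probe sets, by tissue, with acrylamide arrays (circles) left of saline arrays (diamonds) and a line at the mean of each pair. In every panel and tissue both acrylamide arrays lie to one side of the saline pair, from 2224 and 2443 against 1771 and 1798 for Gstp1 in the cerebellum to 367 and 543 against 855 and 1097 for 1395745_at in the nerve.

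The exact permutation test over all within-tissue arrangements of the labels gave p = 0.00926 for each of the 6 (two-sided), the smallest p that this design allows. That value follows from the separation in each tissue, is reached by all 261 probe sets that are separate in this way, and treats the tissues as independent, so it adds nothing to the calls. Arrays of different tissues that shared a treatment and a replicate number deviated together: across the 15930 probe sets, replicate 1 minus replicate 2 correlated between tissues at 0.132 to 0.314 in acrylamide arrays and at 0.125 to 0.216 in saline arrays. With these sets of 3 arrays as a random block, Gstp1 and Gbp2 had adjusted p = 0.12, Asph 0.153, and Avil and 1395745_at 0.0874 (limma). Over the 4 averages of such sets, 2 acrylamide against 2 saline, limma called 0. Of the 15930 probe sets 407 had an unadjusted p under 0.05, fewer than evenly spread p-values would give. Leaving out 1 array left 1371689_at called in 12 of 12 cases, and it was the only call in 9 of them. Without both nerve replicate 1 arrays, which carried cerebellar transcripts, all 6 stayed called among 34, with adjusted p from 0.00227 to 0.0434 (limma). Without the nerve, Gstp1, Asph, 1371689_at and 1395745_at stayed called among 28, while Gbp2 and Avil had adjusted p = 0.153 and 0.0711 (limma). The p-values of the main fit rest on the spread between arrays of pooled tissue and on unequal differences between the tissues. They do not measure the spread between rats.

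Below the threshold the tested probe sets split about evenly. At an unadjusted p under 0.05 there were 486 higher (3.05%) and 517 lower (3.25%) probe sets, and over all tested the median difference was 0.002 with a standard deviation of 0.114. Of all 15930, 2474 (15.5%) were higher in all 3 tissues and 2355 (14.8%) were lower in all 3, which makes 30.3% with 1 sign. Both acrylamide arrays lay above both saline arrays in each tissue for 118 (0.741%) and below them in each tissue for 143 (0.898%). An unadjusted p under 0.05 in the same direction in each tissue was reached by 25 (0.157%), 14 higher and 11 lower. Across all tested probe sets, the differences of cerebellum and cord correlated at 0.18, those of cord and nerve at 0.179 and those of cerebellum and nerve at 0.085. These values are across probe sets, which are not independent replicates, and they share the co-deviation of replicates given above.

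Of the 25, 16 had a gene symbol, and beside Gstp1, Gbp2, Asph and Avil these included 2 other glutathione transferase genes, Gsta1 and Gstm1. Borcs7, Anxa3, Dhrs1, Tubb2b and Nr1d1 were also among those higher in each tissue, and Dnajb14, Letm1 and Zfp451 among those lower in each. Eeig2 (0.24 ± 0.05) and Pcif1 (0.26 ± 0.05) completed the 16 and are named here after their values were seen. None of these 12 passed the adjustment over all probe sets.

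Borcs7 (1383097_at), a subunit of the BORC complex that positions lysosomes, stood just outside the threshold, with a difference of 0.39 ± 0.06 (limma adjusted p = 0.0668). Its signals were 1103 and 1052 in acrylamide cerebellum against 854 and 913 in saline cerebellum, 1679 and 1551 in acrylamide cord against 1167 and 1229.9 in saline cord, and 1463 and 1549 in acrylamide nerve against 989 and 1208 in saline nerve. A dimmer probe set of Borcs7 (1382909_at) was higher in all 3 tissues without overlap too, by 0.38, 0.35 and 0.38 in cerebellum, cord and nerve, while the brightest (1391495_at) differed by 0.07, 0.07 and 0.18. Probe set 1371776_at, which has no symbol, had the same adjusted p, with a difference of -1.22 ± 0.19.

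Anxa3 (1367974_at), an annexin that binds membranes when calcium rises, had signals of 1188 and 1129 in acrylamide cerebellum against 810.2 and 825 in saline cerebellum, 2859 and 2824 in acrylamide cord against 2035 and 1925 in saline cord, and 2415 and 3117 in acrylamide nerve against 2393 and 1734 in saline nerve. The groups did not overlap, although in the nerve the margin was small, and the difference of 0.48 ± 0.08 was not called (limma adjusted p = 0.119). Entpd5 (1372774_at), a nucleotidase that serves the folding of glycoproteins in the endoplasmic reticulum, had 464 and 496 in acrylamide cerebellum against 436 and 413 in saline cerebellum. It was at 1539 and 1429.5 in acrylamide cord against 911 and 958 in saline cord, and at 1042 and 988 in acrylamide nerve against 789 and 768 in saline nerve. All 3 tested probe sets of Entpd5 were higher in all 3 tissues, and the shared difference on this one was 0.40 ± 0.07 (limma adjusted p = 0.152).

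The largest difference among the named genes was that of Pik3r1 (1370114_a_at), the regulatory subunit of phosphoinositide 3-kinase, at 1.68 ± 0.32 (limma adjusted p = 0.152). Its signals were 349.6 and 437 in acrylamide cerebellum against 107 and 207 in saline cerebellum, 643 and 989.9 in acrylamide cord against 118 and 330.2 in saline cord, and 621 and 1171 in acrylamide nerve against 127 and 401 in saline nerve. Replicate 2 exceeded replicate 1 in both groups and all tissues, a spread between replicates that the tissues shared. Dusp6 (1387024_at), a phosphatase that limits ERK signalling, was higher by 0.38 ± 0.07 (limma adjusted p = 0.138), but its dimmer probe sets were lower in the cord, by -0.09 and -0.16. Dhrs1 (0.31 ± 0.05), a short-chain dehydrogenase, and Tubb2b (0.28 ± 0.05), a beta-tubulin of neurons, were also higher without overlap in each tissue.

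Among genes lower in all 3 tissues, Letm1 (1375289_at), a cation exchanger of the inner mitochondrial membrane, had 1238 and 1462 in acrylamide cerebellum against 1809.9 and 1665 in saline cerebellum. It was at 1111 and 1266 in acrylamide cord against 1477 and 1618 in saline cord, and at 795 and 978 in acrylamide nerve against 1133 and 1248 in saline nerve. Its difference of -0.39 ± 0.07 was not called (limma adjusted p = 0.119), and a second probe set of similar brightness, 1371739_at, differed by 0.03, -0.01 and -0.16 in cerebellum, cord and nerve. The remaining one, 1396013_at, was at -0.21, -0.09 and 0.10 in that order of tissues. Aldh6a1, which degrades valine, was split likewise, with -0.41 ± 0.08 on 1368814_at and with 0.27, 0.11 and -0.26 in cerebellum, cord and nerve on 1387344_at. Zfp451 was at -0.30 ± 0.07 on 1394654_at and within 0.05 of 0 in each tissue on 1382242_at. By contrast, the 3 tested probe sets of Itgav, the integrin alpha-V chain, were lower in every tissue. On 1383880_at Itgav had 78.5 and 61.0 in acrylamide cerebellum against 132 and 187 in saline cerebellum, 189.9 and 195 in acrylamide cord against 362 and 426 in saline cord, and 303 and 476 in acrylamide nerve against 451 and 575 in saline nerve. Only the nerve groups overlapped, and the difference was -0.80 ± 0.15 (limma adjusted p = 0.152). Dnajb14, a co-chaperone of the endoplasmic reticulum membrane, was at -0.38 ± 0.06 on 1384376_at, while its dimmer probe set 1393996_at was at 0.53, -0.30 and 0.41 in cerebellum, cord and nerve. Ift20, a carrier of cilium cargo, was at -0.18 ± 0.04, and Ift20 and the first Dnajb14 probe set showed no overlap in any tissue. Over all genes, of 324 probe sets at an unadjusted p under 0.05 with another tested probe set of the same gene, 207 (63.9%) had 1 sign on all of them.

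**Figure D2:**
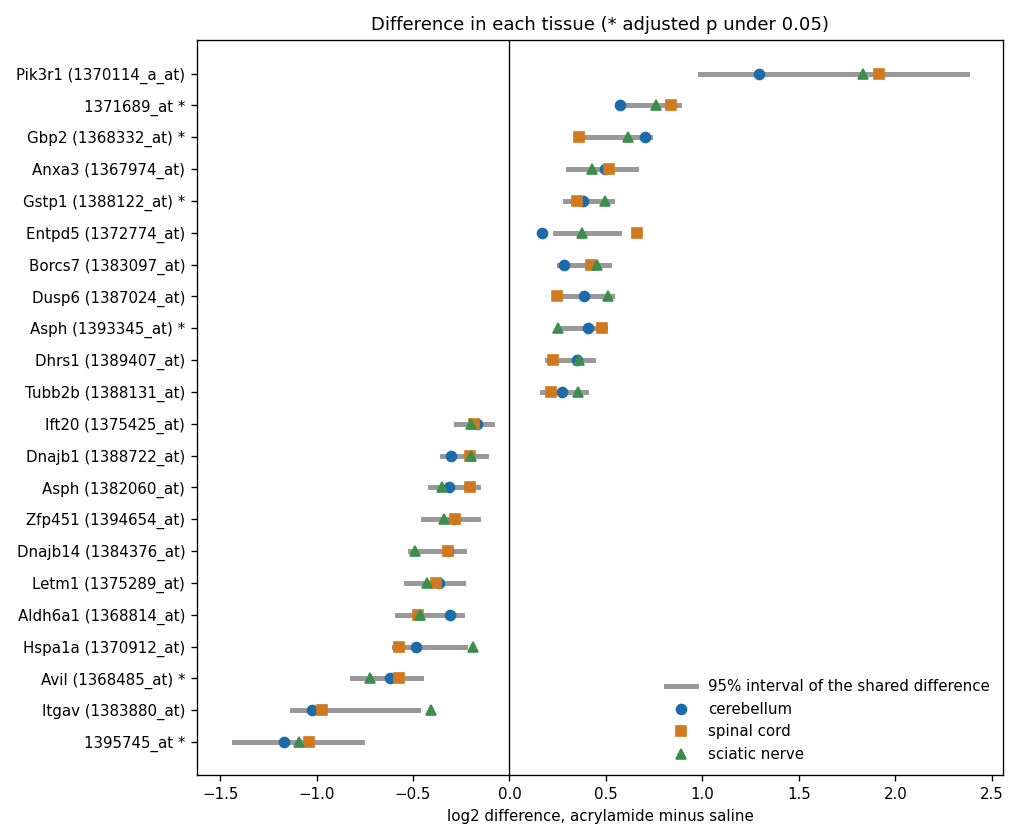
Log2 difference, acrylamide minus saline, in the cerebellum (circles), spinal cord (squares) and sciatic nerve (triangles) for the called probe sets (asterisk) and for the named genes with the smallest p that were not called, with the 95% interval of the shared difference as a bar. The tissue values of Gstp1 are 0.38, 0.35 and 0.49 and those of Gbp2 0.70, 0.36 and 0.62 in cerebellum, cord and nerve, while those of Entpd5 run from 0.17 in cerebellum to 0.66 in cord.

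Gene lists are described by their counts beside those of the 9187 genes tested with 1 probe set each. Of these genes 51.1% were higher on average, 15.8% were higher and 14.4% lower in all 3 tissues, 3.08% higher and 2.9% lower had an unadjusted p under 0.05, and the median difference was 0.00172. In bulk tissue, fewer cells of a type and less RNA per cell cannot be told apart. All lists were chosen with earlier results of these data known, so their counts describe these arrays and are no independent support.

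Glutathione transferases and other NRF2 targets were mostly higher: 25 of 34 on average and 12 in all 3 tissues, against 3 lower in all 3, with a median of 0.07. An unadjusted p under 0.05 was reached by 7, all of them higher, and 1, Gstp1, was called. Gsta1 (1367774_at), an alpha-class transferase, had signals of 1374 and 1619 in acrylamide cerebellum against 1164 and 1042 in saline cerebellum, 4877 and 6199 in acrylamide cord against 3827 and 3792 in saline cord, and 5094 and 7188 in acrylamide nerve against 4719 and 3868 in saline nerve. Gstm1 (1386985_at), of the mu class, had 2588 and 2746 in acrylamide cerebellum against 2221 and 2212 in saline cerebellum, 2652 and 2902 in acrylamide cord against 2284 and 2168 in saline cord, and 1387 and 1246 in acrylamide nerve against 1170.2 and 911 in saline nerve. Both were higher on every acrylamide array than on the saline arrays of the tissue, by 0.49 ± 0.09 for Gsta1 and 0.31 ± 0.06 for Gstm1 (limma adjusted p = 0.153 and 0.177). Probes of transferases can bind close relatives of the same class.

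Nqo1 (1387599_a_at), a quinone reductase and a classical NRF2 target, had 701 and 1042 in acrylamide cerebellum against 630.5 and 691 in saline cerebellum, 1875 and 2925 in acrylamide cord against 1440.4 and 1542 in saline cord, and 2416 and 3324 in acrylamide nerve against 1907 and 2365 in saline nerve. Its groups did not overlap, but acrylamide replicate 2 was far above replicate 1 in each tissue, and its difference of 0.48 ± 0.13 was not called (limma adjusted p = 0.461). The same order of replicates held for Gsta1. The heme oxygenase gene Hmox1 was higher in all 3 tissues at 0.30 ± 0.09. Nfe2l2, which encodes NRF2, and Keap1 differed by 0.02 and -0.02. Gsta4, which clears lipid aldehydes, was at 0.69 in the cerebellum, -0.18 in the cord and -0.16 in the nerve, so not every transferase had 1 sign. The 18 peroxide and superoxide scavenging genes had a median of 0.02, with 1 at an unadjusted p under 0.05, and the 7 tested genes of acrylamide epoxidation and epoxide hydrolysis had a median of -0.006, 1 higher and 1 lower at that p.

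All 20 tested genes of cholesterol synthesis were lower on average, 17 of them in all 3 tissues, with a median difference of -0.20. Of the 20, 15 had an unadjusted p under 0.05, or 75%, against 2.9% of all genes that were lower at that p, and 0 were called. The medians were -0.10 in the cerebellum, -0.14 in the cord and -0.35 in the nerve. Msmo1 (1368275_at), a sterol methyl oxidase, had signals of 1623 and 1616 in acrylamide cerebellum against 1841 and 1967 in saline cerebellum, 7125 and 7488 in acrylamide cord against 7675 and 8485 in saline cord, and 9342 and 9760.5 in acrylamide nerve against 10559 and 13818 in saline nerve. Cyp51 (1367979_s_at), the lanosterol demethylase, had 2288 and 2199 in acrylamide cerebellum against 2547 and 2734 in saline cerebellum, 8623 and 9168 in acrylamide cord against 9779 and 9789 in saline cord, and 10116 and 10035 in acrylamide nerve against 11053 and 15692 in saline nerve. Neither gene showed an overlap in any tissue, and both missed the threshold (-0.24 ± 0.06 and -0.25 ± 0.07; limma adjusted p = 0.392 and 0.511).

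The other cholesterol genes lay close to these. Fdps, which makes farnesyl diphosphate, was at -0.26 ± 0.09, the lowest shared value of the list. Insig1, the sterol sensor of the endoplasmic reticulum and itself a sterol-regulated gene, was at -0.13 in the cerebellum, -0.09 in the cord and -0.54 in the nerve. Srebf2, which encodes the transcription factor that drives the pathway, was at -0.05, the value nearest 0. The signs in the cerebellum were positive for 3 members, Mvk, Idi1 and Mvd. All 20 stayed lower with each array left out in turn, and the median ran from -0.249 without the cerebellum to -0.129 without the nerve. It was -0.131 without saline nerve replicate 2, and the number at an unadjusted p under 0.05 was 8 without acrylamide nerve replicate 1 and 18 without saline nerve replicate 1. That number was 5 without the cord, 8 without the nerve, 12 without the cerebellum and 9 with median centring. Saline nerve replicate 2, the highest nerve array for Msmo1 and Cyp51, was also the highest in the summed signal of 16 Schwann cell and peripheral myelin genes, at 150300 and 162300 on the acrylamide nerve arrays against 152900 and 188700 on the saline nerve arrays. The part of these markers in the cholesterol values was not tested.

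**Figure D3:**
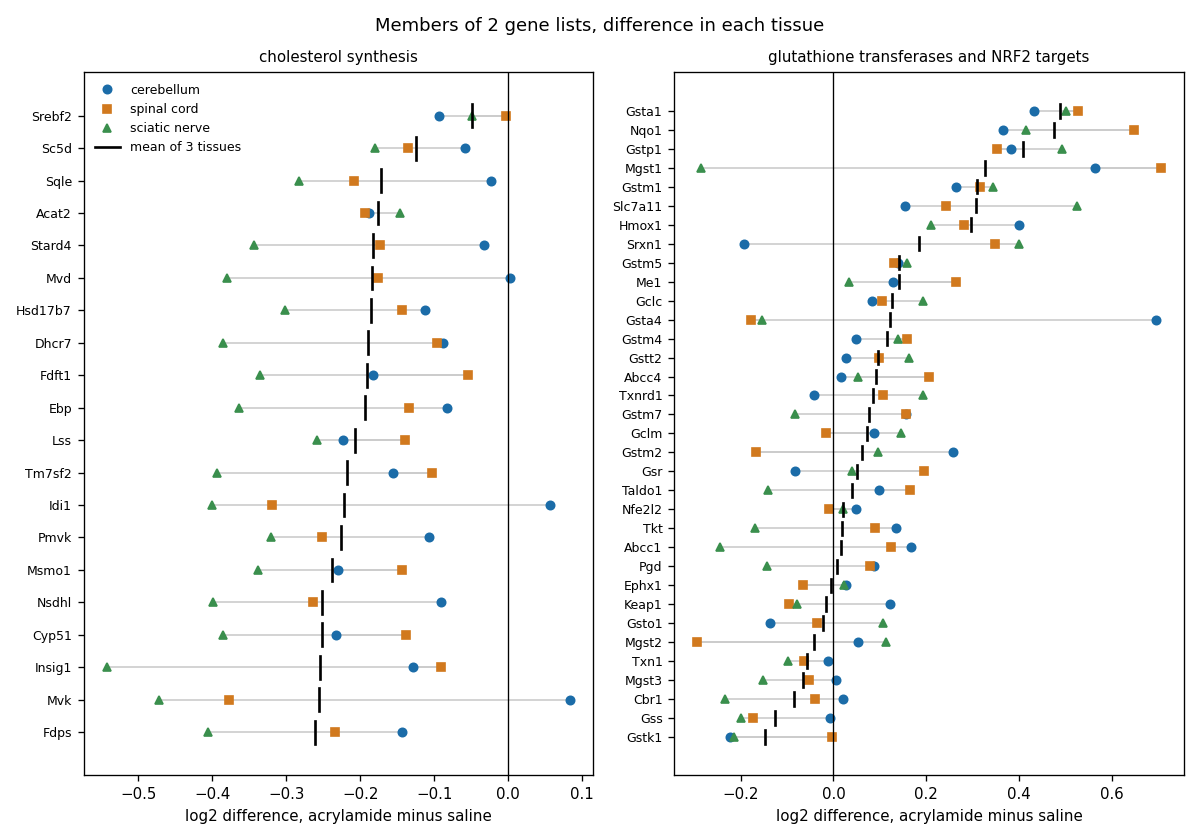
Log2 difference in each tissue (circles cerebellum, squares cord, triangles nerve) and its mean (black tick) for the 20 cholesterol synthesis genes and the 34 glutathione transferase and NRF2 genes tested. All cholesterol means lie left of 0, between -0.261 and -0.0485, and the NRF2 means run from -0.147 to 0.487, with Gsta1, Nqo1 and Gstp1 at the top.

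Of the oligodendrocyte and shared myelin list, Fa2h and Ugt8 had the smallest p among the members that were lower. Fa2h (1393808_at), the fatty acid hydroxylase of myelin sphingolipids, had 708 and 718 in acrylamide cerebellum against 795 and 956 in saline cerebellum, 3519.7 and 3604 in acrylamide cord against 4284 and 4667 in saline cord, and 4863 and 4574 in acrylamide nerve against 5038 and 7809 in saline nerve. Ugt8, which makes galactosylceramide, was lower without overlap in each tissue as well, with differences of -0.23 ± 0.06 for Ugt8 and -0.34 ± 0.09 for Fa2h (limma adjusted p = 0.37 and 0.392). Of 17 oligodendrocyte and shared myelin genes, 13 were lower, 7 in all 3 tissues, with a median of -0.07, and 8 of 9 Schwann cell and peripheral myelin genes were lower, 5 in all 3, with a median of -0.08. Myrf, the transcription factor of myelinating oligodendrocytes, lay the other way at 0.18 ± 0.08. The median of the oligodendrocyte list was -0.003 without acrylamide nerve replicate 2, and that of the Schwann list was -0.01 without saline nerve replicate 2. Collagen and laminin genes had no common direction, with medians of 0.11 in cerebellum, -0.33 in cord and 0.08 in nerve.

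Interferon-induced genes were higher for 19 of 21 on average, with a median of 0.24. Of these, 10 were higher and 0 lower in all 3 tissues, 7 had an unadjusted p under 0.05, and 1, Gbp2, was called. The 7 became 12 without acrylamide nerve replicate 1, 14 without both nerve replicate 1 arrays, 11 without the nerve and 3 without the cerebellum. Mx2 (1369202_at), an antiviral GTPase, had 293 and 311 in acrylamide cerebellum against 203 and 126 in saline cerebellum, 828 and 792 in acrylamide cord against 446 and 506 in saline cord, and 564 and 1139.7 in acrylamide nerve against 791 and 590.2 in saline nerve. Both central tissues were separate and the nerve overlapped, and the shared difference was 0.61 ± 0.18 (limma adjusted p = 0.492). Ifit1 and Ifit2, which bind foreign RNA or block its translation, were both at 0.44 and each overlapped in 1 tissue, Ifit1 in the cord and Ifit2 in the nerve. The median of the list was 0.45 in the cerebellum, 0.25 in the cord and 0.10 in the nerve, where 11 of the 21 were higher.

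All 6 tested MHC class II genes, which present antigen, were higher on average with a median of 0.40, and 0 were called. An unadjusted p under 0.05 was reached by 2, by 0 without the cerebellum and by 5 without the nerve. Cd74 (1367679_at), the invariant chain, had signals of 790.3 and 836 in acrylamide cerebellum against 469 and 319 in saline cerebellum, and 1625 and 1767 in acrylamide cord against 1191 and 1204 in saline cord. In the nerve it was at 4384 and 5258 with acrylamide, between the saline values of 7066 and 3005, so the nerve gave no separation. RT1-Ba had the same pattern, with 1304 and 1518 in acrylamide nerve against 2227 and 625 in saline nerve. The nerve log2 differences of Cd74 and RT1-Ba were positive, at 0.06 and 0.25, but their mean nerve signals were not higher with acrylamide. Those means were 4821 with acrylamide against 5036 with saline for Cd74, and 1411 against 1426 for RT1-Ba.

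Microglia and macrophage markers were higher for 15 of 18, 11 of them in all 3 tissues, with a median of 0.27, and 5 had an unadjusted p under 0.05. Fcgr2b (1371079_at), an inhibitory antibody receptor, had 133 and 152 in acrylamide cerebellum against 79.2 and 98.8 in saline cerebellum, 505 and 513 in acrylamide cord against 315 and 391 in saline cord, and 841 and 753 in acrylamide nerve against 690.5 and 356 in saline nerve. It was the marker that was separate in all 3 tissues, at 0.59 ± 0.14 (limma adjusted p = 0.288). Aif1, the calcium-binding protein IBA1, was at 0.57 ± 0.20, and the lectin gene Lgals3 at 0.56 ± 0.16. The purinergic receptor gene P2ry12 was at 0.26 and Tmem119, another marker of resident microglia, at -0.01.

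The signal summed over 27 microglia and macrophage markers on the array was 22230 and 22490 in acrylamide cerebellum against 18080 and 20070 in saline cerebellum, and 48360 and 47210 in acrylamide cord against 43110 and 45720 in saline cord. It overlapped in the nerve, with 49390 and 57710 on acrylamide arrays against 58300 and 46960 on saline arrays. The part of these cells in the interferon and MHC class II values was not tested. The microglia median was 0.0987 without saline nerve replicate 2 and 0.484 without saline nerve replicate 1, and the 5 markers at an unadjusted p under 0.05 became 12 without saline nerve replicate 1. The summed signal of 11 blood cell markers overlapped between the groups in all tissues.

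Gfap (1368353_at), the filament protein of astrocytes, was higher on every acrylamide array, with 9836 and 9468 in acrylamide cerebellum against 6307 and 7239 in saline cerebellum, 16358 and 17468 in acrylamide cord against 15071 and 14796 in saline cord, and 3405 and 2449 in acrylamide nerve against 1979.6 and 1718 in saline nerve. Its difference was 0.44 ± 0.09 (limma adjusted p = 0.211), and 10 of 13 genes of the reactive astrocyte list were higher, 6 in all 3 tissues. The list median of 0.153 was 0.0509 without saline nerve replicate 2 and 0.198 without the cerebellum. The list names genes and not cells, and which cells gave their nerve signal was not tested. In the nerve, where replicate 1 carried cerebellar transcripts in both groups, replicate 1 of each group also had the higher Gfap signal. Of 8 iron uptake and storage genes, 7 were higher and 5 in all 3 tissues. Ceruloplasmin (Cp), which oxidises iron, was at 0.41 ± 0.12, with its groups separate in the cord and the nerve.

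Lysosome and autophagy genes were higher for 28 of 31, by small amounts, with a median of 0.06 and 10 in all 3 tissues. Lamp2 (1370010_at), a lysosomal membrane protein, was separate in all 3 tissues, with 2525 and 2493 in acrylamide cerebellum against 2156 and 2099.9 in saline cerebellum, 7761 and 6525 in acrylamide cord against 5974 and 6261 in saline cord, and 10522 and 10644 in acrylamide nerve against 9097 and 10316 in saline nerve (0.19 ± 0.05, limma adjusted p = 0.37). Npc2, the lysosomal cholesterol carrier, was higher without overlap in the cerebellum and the cord, by 0.30 and 0.27, and lower without overlap in the nerve, at -0.06.

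Heat shock genes were lower for 12 of 15, 6 in all 3 tissues and 0 higher in all 3, but with a median of only -0.03. Hspa1a (1370912_at), the inducible HSP70, whose probes can also bind its copy Hspa1b, had 216 and 231 in acrylamide cerebellum against 368 and 276 in saline cerebellum, 411 and 373 in acrylamide cord against 619 and 562 in saline cord, and 1881 and 1957 in acrylamide nerve against 2136 and 2249.5 in saline nerve. Dnajb1 (1388722_at), its HSP40 co-chaperone, had 955 and 1077 in acrylamide cerebellum against 1231 and 1282 in saline cerebellum, 1104 and 1174 in acrylamide cord against 1262 and 1366 in saline cord, and 1216 and 1356 in acrylamide nerve against 1423 and 1537 in saline nerve. Both were below the saline arrays on every acrylamide array, by -0.42 ± 0.08 and -0.24 ± 0.05 (limma adjusted p = 0.18 and 0.288), and a second Dnajb1 probe set was lower in each tissue too. Of 27 chaperone and unfolded protein response genes of the endoplasmic reticulum, 17 were higher (63%, against 51.1% of all genes), with a median of 0.03. The list holds Asph, a hydroxylase, and Entpd5, and like the other lists it was chosen with earlier results of these data known. Its counts are therefore no independent support. An unadjusted p under 0.05 was reached by 5, among them Asph, whose direction depends on the probe set, Entpd5 and Sdf2l1 (0.24 ± 0.07). That number was 3 with quantile normalization, with median centring or with the random block. With 1 array left out in turn it was 3 in 8 of 12 cases. The 20 ATF4 amino acid stress genes had a median of 0.01 and 0 at that p.

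Of 19 clock genes, 10 were higher and 9 lower. At an unadjusted p under 0.05, 6 were higher (31.6%) and 2 lower (10.5%), and 0 were called. Nr1d1 (1370816_at), the clock repressor REV-ERB alpha, had 514 and 561 in acrylamide cerebellum against 393 and 388 in saline cerebellum, 262 and 319 in acrylamide cord against 193 and 169 in saline cord, and 599 and 622 in acrylamide nerve against 185 and 149 in saline nerve. It was higher on every acrylamide array, by 0.44, 0.63 and 1.78 in cerebellum, cord and nerve (shared 0.95 ± 0.19, limma adjusted p = 0.176). The clock output gene Dbp was higher at 0.35 ± 0.08 and Bhlhe41 at 0.24 ± 0.06. Per1 was lower at -0.54, and Nfil3, which REV-ERB represses, was lower without overlap in each tissue at -0.34 ± 0.09. The time of day of collection is not given in the labels, so its part in these values was not tested.

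Of 16 glucocorticoid-induced genes 10 were lower, 4 of them at an unadjusted p under 0.05 (25%), and 1 was higher at that p. Ddit4 (1368025_at), a stress-induced inhibitor of mTOR, had 1551 and 1515 in acrylamide cerebellum against 1721 and 1683 in saline cerebellum, 1301 and 1186 in acrylamide cord against 1611 and 1771 in saline cord, and 1525 and 1180.4 in acrylamide nerve against 2753 and 2899.6 in saline nerve. It was separate in every tissue at -0.55 ± 0.13 (limma adjusted p = 0.297), as was the glucocorticoid target Tsc22d3 at -0.19 ± 0.06. Fam107a, another glucocorticoid target, was the 1 higher at that p, at 0.44 ± 0.14. The median of the list was -0.06, and 0.00135 without saline nerve replicate 1.

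**Figure D4:**
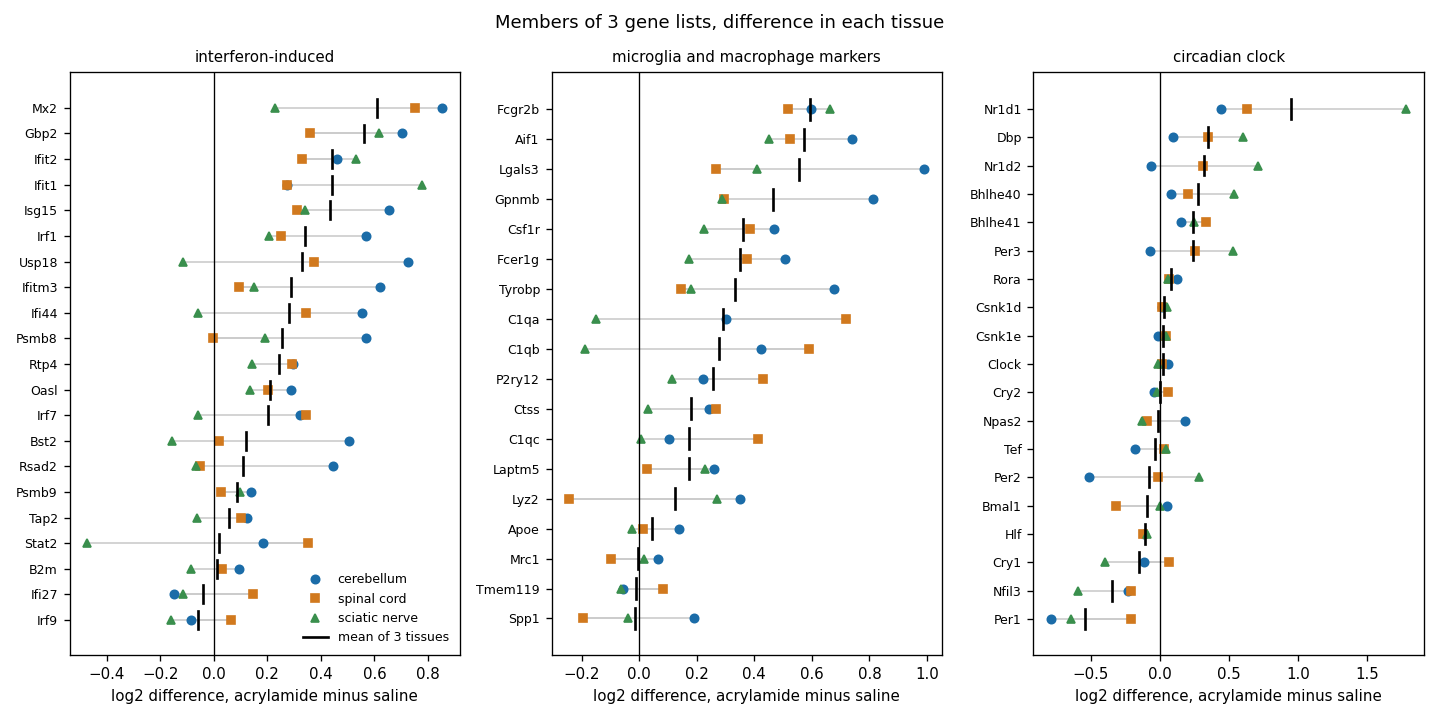
Log2 difference in each tissue (circles cerebellum, squares cord, triangles nerve) and its mean (black tick) for interferon-induced genes, microglia and macrophage markers and circadian clock genes. Most interferon and microglia means lie right of 0, with medians of 0.244 and 0.266, while clock genes spread to both sides, from Nr1d1 at 0.953 to Per1 at -0.545.

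Lists of axons and energy metabolism had medians within 0.05 of 0. Neurofilament and neuronal cytoskeleton genes had a median of 0.002, with 1 of 24, Tubb2b, at an unadjusted p under 0.05. Kinesin and dynein genes (24) had a median of -0.006, synaptic vesicle genes (15) -0.03, mitochondrial respiratory chain genes (38) -0.01, proteasome genes (29) 0.01 and cytosolic ribosome genes (27) -0.02, with 0 at that p in each list. Of the ribosome genes 7 of 27 were higher (25.9%), and in the nerve 25 of 27 were lower, by a median of -0.05. Genes of repair Schwann cells and axon injury (12) had a median of 0.03 with 0 at that p, and cell cycle genes (13) 0.04 with 0. Glycolysis genes (17) had a median of 0.05 and 2 (11.8%) higher at that p, both of them transporter genes and not enzymes. The monocarboxylate transporter gene Slc16a1 was at 0.17 ± 0.04 and separate in each tissue, and the glucose transporter gene Slc2a1 was at 0.16 ± 0.07. With median centring or the random block the number was 1. Single nerve arrays turned the sign of several of these small medians, while those of the proteasome, ribosome and cell cycle lists kept their sign with each array left out. Other settings turned 2 of these: with quantile normalization the ribosome median was 0.00342, with 15 higher and 12 lower. Without the cerebellum the proteasome median was -0.00412. The synaptic median was -0.15 without acrylamide replicate 1 and 0.153 without saline replicate 1, the nerve arrays with cerebellar transcripts. Without saline nerve replicate 2 the repair Schwann cell median was -0.109 and the glycolysis median -0.0261.

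**Figure D5:**
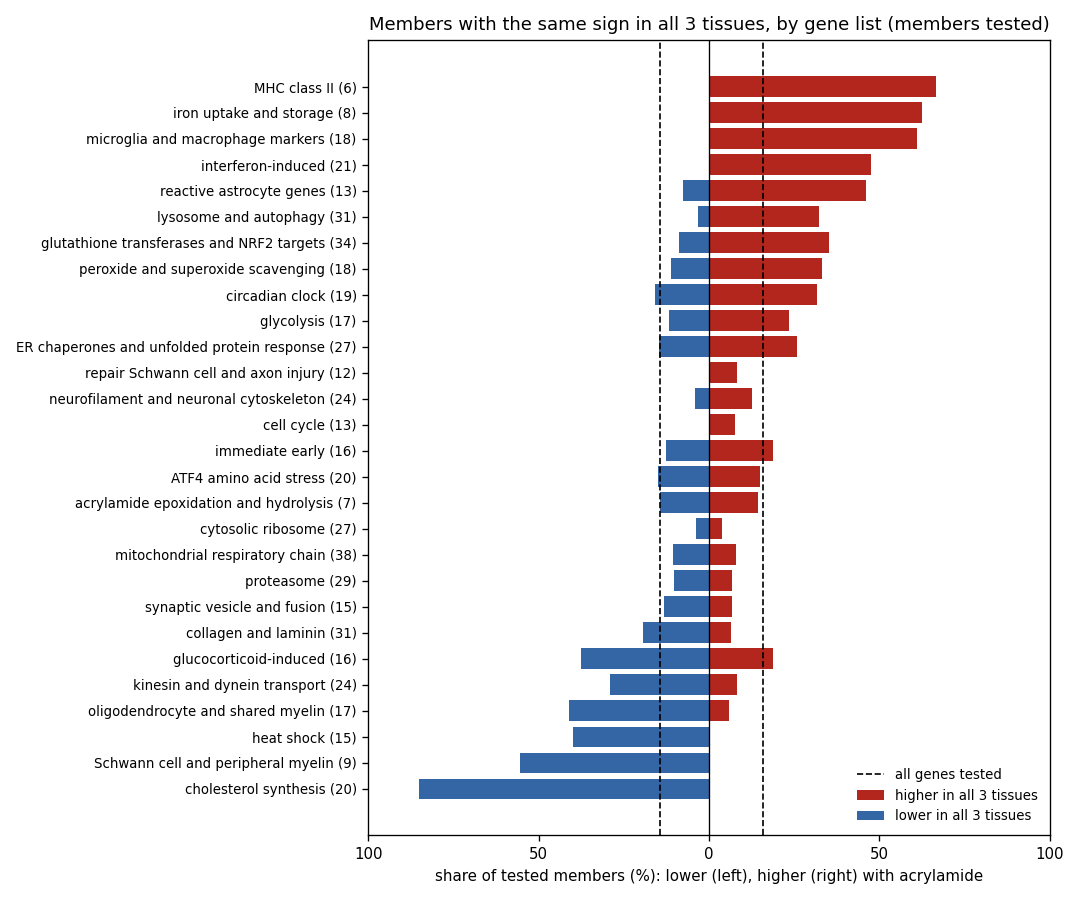
Share of each list's tested members (percent; number in brackets) that were higher (right) or lower (left) with acrylamide in all 3 tissues, with dashed lines at the 15.8% and 14.4% of all genes tested. Cholesterol synthesis has 85% of its members lower in all 3 tissues. MHC class II has 4 of 6 members (66.7%) higher in all 3, among them Cd74 and RT1-Ba, whose groups overlap in the nerve.

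The effect was also tested for differences between the tissues. The F test of the tissue difference called 0 of 15930 probe sets, or 0% (limma with Benjamini-Hochberg adjustment, smallest adjusted p 0.655). An unadjusted p under 0.05 was reached by 409, fewer than evenly spread p-values would give, and by 0 of the 6 called probe sets. With 2 arrays a group, this does not show that the tissues responded alike. The smallest p was that of Nr1d1 (0.000137 before adjustment), whose nerve value stood above the others. Nr4a3 (1369067_at), an orphan nuclear receptor induced by neuronal activity, had 210.0 and 148 in acrylamide cerebellum against 1114 and 920.3 in saline cerebellum, 149.6 and 156 in acrylamide cord against 176 and 210.3 in saline cord, and 163 and 295 in acrylamide nerve against 167 and 85.8 in saline nerve. Its difference was thus -2.42 in the cerebellum, -0.31 in the cord and 0.79 in the nerve. Macroh2a1, a histone variant gene, was at 0.41 in the cerebellum, -0.22 in the cord and -0.38 in the nerve. The immediate early list was split the same way as Nr4a3, with medians of -0.28 in the cerebellum, -0.22 in the cord and 0.26 in the nerve, where 13 of 16 were higher. Its members Nr4a1 and Nr4a2 were not among these 13, at -0.07 and -0.003 in the nerve.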

How the data were processed

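Total RNA from cerebellum, spinal cord and sciatic nerve was labelled as biotin cRNA and hybridised to Affymetrix rat arrays, per the labels' protocols. The deposited values are 1 linear signal intensity per probe set and array, which the authors computed in the scanner software GCOS 1.1 according to the submitters' processing notes. The 2% trimmed mean of each array was close to 500.1, as deposited, so the arrays had been scaled to 1 level; no scanner files, detection calls or counts were used here, and the depth does not apply. The 57 control probe sets were left out. Gene symbols came from the platform annotation, updated by gene ID for 20758 probe sets and kept for 68; 436 had several symbols and 9780 had none, and these are not named.

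From these values log2(signal + 16) was computed, a scale that understates changes of dim probe sets, and the 15930 probe sets with a mean above 110 in each tissue were tested. limma 3.58.1 in R 4.3.3 (with statmod 1.5.0) fitted tissue and treatment with a trended empirical Bayes variance, and p-values were adjusted by Benjamini-Hochberg over all 15930. A fit of the 6 group means gave the values of each tissue and the F test of their difference. The scripts were tested on simulated data.

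The genes named are, in each direction, the called probe sets with 1 symbol and 1 sign in all 3 tissues, filled to 10 by smallest p; the 4 with the smallest p of the tissue difference; and up to 4 members of each list by smallest p. Other genes were named after their values were seen: Eeig2, Pcif1, Nfe2l2, Keap1, Gsta4, Srebf2, Mvk, Idi1, Mvd, P2ry12, Tmem119 and Per1. A gene with several probe sets stands in a list by the brightest. The members and lists were chosen with earlier results of these data known.

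Replicate numbers come from the labels, which do not say what a number shares. Within acrylamide or saline, same-numbered arrays of different tissues deviated together, with every correlation above 0.1, the lowest being 0.125, and were therefore also taken as a block. Promoter windows are RefSeq's on GRCr8. Alternatives changed the scaling, the pseudocount, the filter, the variance model, the block and the arrays included.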

Additional observations from a re-analysis of the deposited data

How the results depend on the processing

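The count of 6 called probe sets depended on the processing. It was 7 with quantile normalization, 1 with median centring, 1 without the filter, 1 when a mean above 110 in at least 1 tissue sufficed and 4 with a mean above 220. It was 2 without the variance trend and 2 as the average of the contrasts of 6 group means. Pseudocounts of 1 and 64 and the robust fit each gave 6. With a replicate block, the count was 9 for tissue-by-number blocks, 12 for the number over all tissues, 1 for the same-numbered arrays of a treatment as a random block (estimated correlation 0.134) and 0 for the 4 averages of such arrays. Acrylamide and saline arrays of 1 number correlated at 0.0852 in cerebellum, -0.041 in cord and 0.512 in nerve, where replicate 1 of both carried cerebellar transcripts; 2 of the 3 values lie below 0.1, so the number was not taken to pair the treatments, although it ties them in the nerve. Leaving out 1 array in turn gave 1 to 10 calls, 10 without saline nerve replicate 1 and 1 for 9 of the 12 arrays. Without the cerebellum 0 of 15930 were called (777 at an unadjusted p under 0.05), and without the cord 0 (579). The count was 28 without the nerve and 34 without both nerve replicate 1 arrays. A further alternative, chosen after seeing the data, left out all nerve arrays and spinal cord saline replicate 1. The cause of these changes was not tested. Without the filter, 8718 of 31042 probe sets had 1 sign in all 3 tissues and 417 were separate in each. Among 26 named probe sets, 714 of 845 values under the alternatives kept direction and side of the threshold, 107 lost the call, 18 gained it and 6 reversed. Probe sets that were never called count as kept, and only the called ones could lose a call. The call was lost in 23 of 32 alternatives for Gbp2, 20 of 33 for Gstp1 and 21 of 33 for Asph (1393345_at). It was lost in 21 of 32 for Avil, 19 of 32 for 1395745_at and 3 of 32 for 1371689_at. The 6 reversals were those of Nr4a3, Macroh2a1 and LOC102553541, all picked for unequal tissues. Nr4a3 was at 0.242 without cerebellum, and LOC102553541 at 0.132 without cerebellum and 0.0209 without cord. Macroh2a1 was at 0.0158 without cord, 0.0948 without nerve and 0.146 without all nerve arrays and spinal cord saline replicate 1. The tissue difference gave 0 calls in every alternative run. Dim probe sets such as Avil in the cord and Gbp2 in the cerebellum lie near the filter signal, where background limits the fold.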
